A study of Arabidopsis thaliana with 36 samples.

Results

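RNA-seq libraries of wild-type Arabidopsis thaliana seedlings taken 2 h after the flagellin peptide flg22 was added (WT 2 h) were set against libraries of untreated wild-type seedlings (WT 0 h), over all genes of the deposited count table. Both groups were the accession Col-0, with 3 libraries each, so 6 of the series' 36 libraries make up the comparison. Of the 32678 genes in the table, 21356 passed the filter on low counts and were tested. All seedlings were grown in liquid MS medium under long days and were 12 days old. The medium of the WT 2 h seedlings was replaced with medium holding 1 µM flg22, and the labels record no exchange of medium for the WT 0 h seedlings. The effects of flg22, of the fresh medium and of the hours that passed between the harvests therefore cannot be told apart. The other libraries came from WT at 1 h and from the mutants wrky18, wrky40 and wrky18 wrky40 at 0, 1 and 2 h. Of these, WT at 1 h and the double mutant at 0 and 2 h are used here for 2 further comparisons. Polyadenylated RNA came from whole seedlings, which pool many cell types. A lower level can thus mean fewer cells of a type or less RNA per cell, and these cannot be told apart.

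The leucine-rich repeat receptor kinase FLS2 binds flg22 at the cell surface and then pairs with the coreceptor BAK1. Cytoplasmic kinases such as BIK1 pass the signal on to the NADPH oxidase RBOHD, to calcium channels and to cascades of mitogen-activated protein kinases. Many of the genes that follow carry W boxes, the DNA element bound by WRKY transcription factors. The outcome, called pattern-triggered immunity, includes secretion of antimicrobial indole compounds, callose deposition and slower growth of seedlings.

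The 6 libraries held between 22853694 and 32979785 counts. Levels are given in CPM, library-size scaled counts with TMM factors, and changes as the log2 fold change of WT 2 h over WT 0 h with its SE. P values come from the two-sided quasi-likelihood test in edgeR, adjusted over all genes tested by the Benjamini-Hochberg method, and genes with an adjusted p below 0.05 count as called. The typical SE of a log2 fold change was 0.13 (median over genes). Among replicates, WT 0 h replicate 3 stood somewhat apart from the other untreated libraries. Of the 1976 genes that rose at least 4-fold and had a count at 0 h, 991 (50.2%) had their highest untreated value in replicate 3, against 7620 (35.8%) of 21270 genes over all those tested with a count at 0 h. Of the 813 genes at least 4-fold lower, 364 (44.8%) had it in WT 0 h replicate 1, against 6834 (32.1%) over all. Values without WT 0 h replicate 3 are given where it moved a fold change by more than 1.5 times, for genes with more than 3 counts at 0 h. The share of counts from mitochondrial genes was 0.0179% and 0.0163% in replicate 3 of WT 2 h and WT 0 h, and 0.11% to 0.155% in the other 4 libraries, so it followed the replicate set and not the treatment. Its part in the results was not tested. The 10 root markers, from SHR to PHO1, summed to 159.2 to 163.4 CPM at 2 h and 142.8 to 158.7 CPM at 0 h, with 3 called higher and 3 lower, or 3 higher and 6 lower under upper quartile scaling in place of TMM. Of 4 seed and pollen markers none passed the filter, and their sums were 0 to 1.395 CPM at 2 h and 0.101 to 4.48 CPM at 0 h, the highest again in WT 0 h replicate 3. All 5 leaf markers were lower at 2 h and are described with the photosynthesis genes.

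Most of the transcriptome differed between WT 2 h and WT 0 h. Of 21356 genes tested, 15333 (71.8%) were called, 7831 (36.7%) higher and 7502 (35.1%) lower at 2 h. By size, 4018 genes (18.8%) were at least 2-fold higher and 2781 (13.0%) at least 2-fold lower, while 2056 (9.63%) were at least 4-fold higher and 813 (3.81%) at least 4-fold lower. At 64-fold or more there were 225 genes higher and 15 lower. The median log2 fold change of all genes tested was -0.01, with quartiles of -0.56 and 0.70. In 8192 genes every WT 2 h library lay above every WT 0 h library, in 7965 every one lay below, and in 5199 the groups overlapped. Groups without overlap were therefore the common case, also where this is said of single genes below.

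The genes called higher held 54.7%, 54.6% and 55.3% of the counts of tested genes in the WT 2 h libraries, against 23.7%, 23.2% and 24.5% in the WT 0 h libraries. Genes called lower held 28.0 ± 0.42% at 2 h and 55.1 ± 0.55% at 0 h (mean ± SD, n = 3 each). The genes at least 4-fold higher took 23.9% of counts at 2 h and 2.73% at 0 h, and those at least 4-fold lower 0.460% at 2 h and 3.26% at 0 h (means of 3 libraries). The balance of calls depended on the scaling. With upper quartile scaling in place of TMM, the median of all genes moved to -0.27, and 5978 genes were called higher and 10178 lower, with 3252 at least 2-fold higher and 4133 at least 2-fold lower. Higher genes then made up 37.0% of the calls, against 51.1% with TMM.

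**Figure D1:**
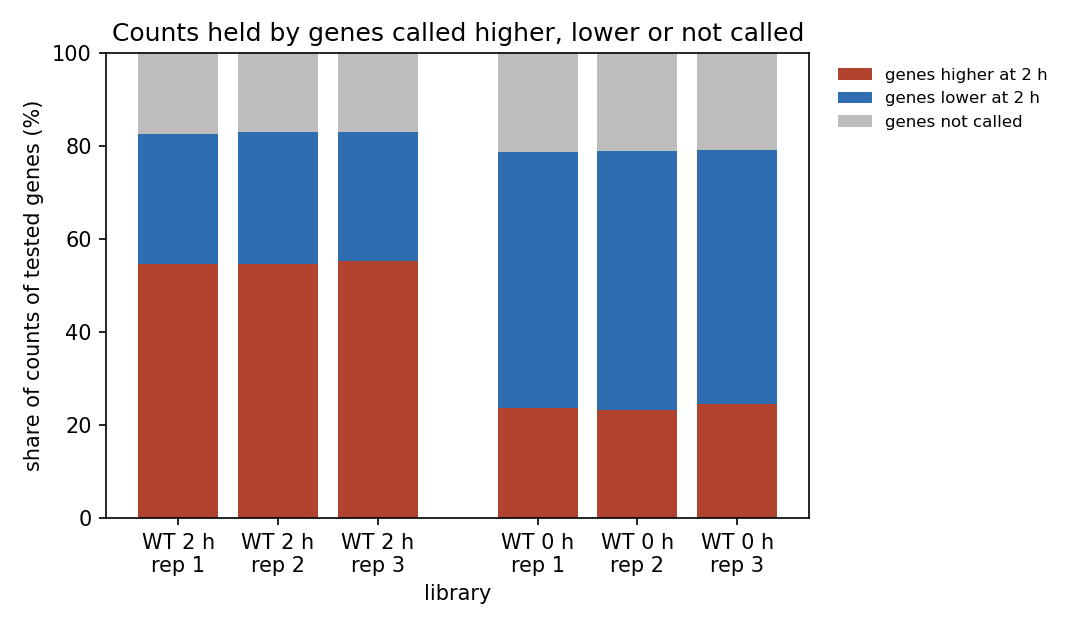
Stacked bars show, for each WT library, the share of the counts of tested genes (percent) held by genes called higher at 2 h, called lower at 2 h and not called; the 3 WT 2 h libraries are on the left. Genes called higher hold 54.6% to 55.3% of counts at 2 h and 23.2% to 24.5% at 0 h.

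The largest rises, ranked among called genes that averaged 10 CPM or more over all 6 libraries and whose groups did not overlap, included 2 Berberine family genes, 2 peroxidases, 2 glutathione transferases, a receptor kinase and a peptide precursor. AT1G26380, annotated as an FAD-binding Berberine family protein and listed here among the genes for indolic defence compounds, had 1343, 1556 and 1463 CPM in WT 2 h seedlings, against 0.952, 1.38 and 3.57 CPM in WT 0 h seedlings. All 3 treated libraries lay far above the untreated ones, with a log2 fold change of 9.50 ± 0.30 (adjusted p = 3.32e-23) and 10.27 without WT 0 h replicate 3. PER4, a secreted class III peroxidase, had 409, 549.5 and 449 CPM at 2 h, against 0.152, 0.405 and 1.36 CPM at 0 h. Its groups were as far apart, with a log2 fold change of 9.46 ± 0.36 (adjusted p = 2.71e-21), or 10.66 without WT 0 h replicate 3, which held the most PER4 of the untreated libraries. CRK20, a cysteine-rich receptor-like kinase, had 95.9, 106 and 119.8 CPM at 2 h, against 0.152, 0.0674 and 0.292 CPM at 0 h, a log2 fold change of 9.24 ± 0.27 (9.90 without WT 0 h replicate 3). The glutathione transferase GSTU12 had 183, 154 and 154 CPM at 2 h, against 0.228, 0.337 and 0.357 CPM at 0 h (log2 fold change 9.02 ± 0.22). PROPEP2, the precursor of a Pep elicitor peptide, had 54.6, 41.95 and 51.6 CPM at 2 h, against 0.0761, 0.0674 and 0.162 CPM at 0 h (log2 fold change 8.83 ± 0.30). A second glutathione transferase gene, AT5G44990, had 19.5, 20.4 and 22.4 CPM at 2 h, against 0, 0 and 0.0973 CPM at 0 h. With 3 counts in all at 0 h, its ratio of 600.4 carried a 95% counting interval of 205.1 to 2914. The other 4 of the 10 largest rises were the peroxidase AT1G14550, the Berberine family gene AT1G26410 and AT1G53625 and AT1G59865, which the annotation leaves uncharacterized. AT1G14550 and AT1G59865 had 5 and 4 counts at 0 h, all in WT 0 h replicate 3. Without that library their log2 fold changes went from 9.43 to 13.14 and from 8.82 to 12.23.

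By the same ranking the largest fall was in NCED4, a dioxygenase that cleaves carotenoids, which had 0.719, 0.775 and 1.01 CPM in WT 2 h seedlings, against 89.1, 81.8 and 62.8 CPM in WT 0 h seedlings. Every treated library was near 1 CPM, and the log2 fold change was -6.54 ± 0.26 (adjusted p = 1.13e-20). BBX14, a B-box zinc finger protein, had 3.09, 2.78 and 3.45 CPM at 2 h, against 111, 115 and 178 CPM at 0 h (log2 fold change -5.44 ± 0.24). COL2, a relative of the flowering regulator CONSTANS, had 2.2, 1.87 and 1.36 CPM at 2 h, against 82.2, 76.7 and 60.2 CPM at 0 h (log2 fold change -5.33 ± 0.19), and it overlaps AT3G02370 on the opposite strand by 771 bp. The ranking itself required that the groups not overlap. AT4G38860, a small auxin-up RNA (SAUR) gene, had 0.634, 0.388 and 1.01 CPM at 2 h, against 34.95, 22.4 and 14.3 CPM at 0 h (log2 fold change -5.16 ± 0.35). XTH6, which cuts and rejoins xyloglucan in the cell wall, had 2.2, 1.97 and 2.79 CPM at 2 h, against 73.3, 63.7 and 51.7 CPM at 0 h (log2 fold change -4.76 ± 0.25). The subtilase AT5G45650, the transporter AT3G21670, the RING gene AT5G47610, the NPH3 family gene AT3G19850 and the uncharacterized AT4G33666 completed the 10, with log2 fold changes between -4.95 and -4.48.

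**Figure D2:**
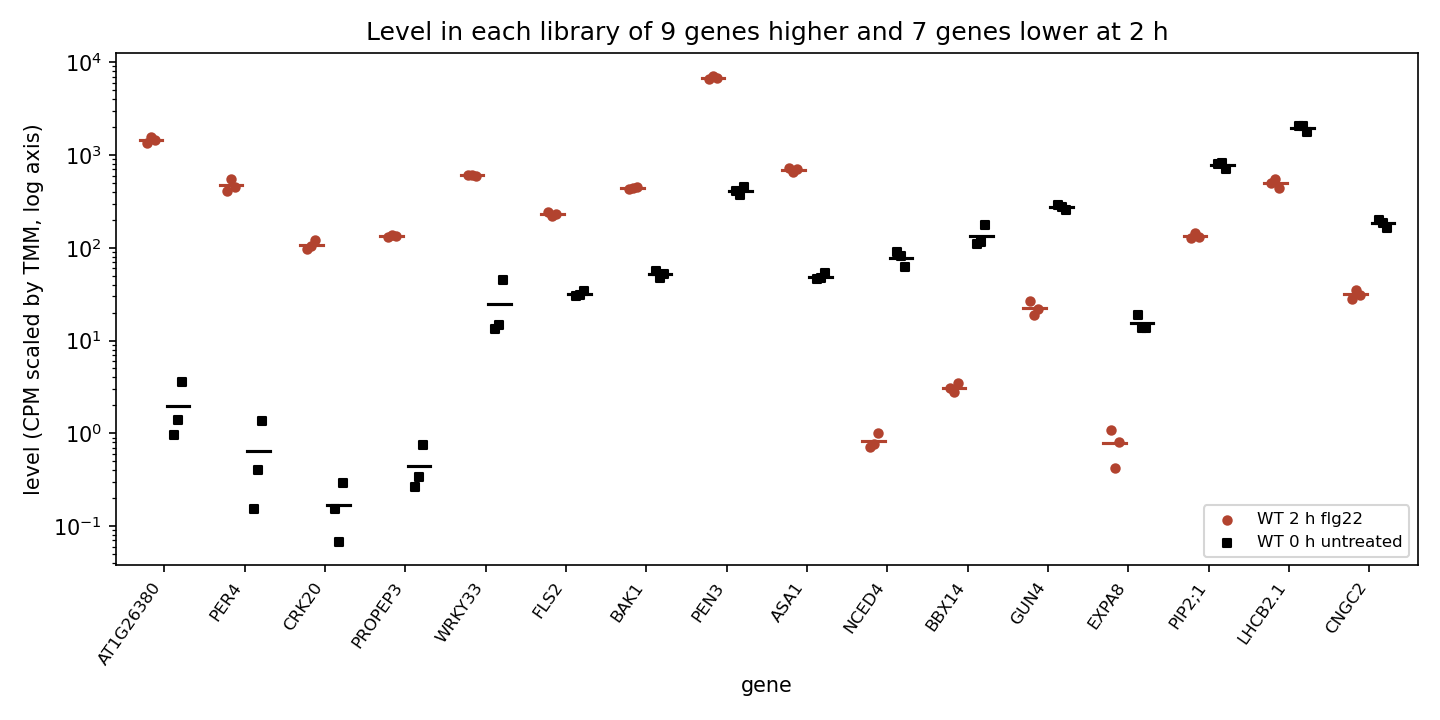
Points give the level (CPM scaled by TMM, log axis) of 9 genes higher and 7 genes lower at 2 h in each of the 3 WT 2 h libraries (left of each pair) and the 3 WT 0 h libraries (right), and lines give group means. In none of the 16 genes do the groups overlap, and over all 21356 genes tested they overlapped in 5199. AT1G26380, PER4, CRK20, NCED4 and BBX14 come from a ranking that required groups without overlap. WT 0 h replicate 3 is the highest untreated point for AT1G26380, PER4, CRK20, PROPEP3, WRKY33, FLS2, PEN3, ASA1 and BBX14.

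Promoters of the genes that rose held W boxes more often than those of all genes. The 250 bases before the annotated start were searched on both strands for TTGACC or TTGACT (W box), and a box in the opposite direction reads GGTCAA or AGTCAA. Of 2001 promoters of genes at least 4-fold higher, 50.1% held at least 1 W box (95% Wilson interval 47.9% to 52.3%), against 20.1% of 790 promoters of genes at least 4-fold lower (17.5% to 23.1%) and 28.9% of 20705 promoters of all tested genes (28.3% to 29.5%). At least 2 boxes stood in 18%, 2.78% and 6.31% of the same promoters. Such intervals cover counting error only, and nearby genes can share a promoter. The G box CACGTG was held by 6.1% of promoters of higher genes, 10.3% of those of lower genes and 7.23% of all. The GCC box GCCGCC stood in 2.55%, 0.633% and 1.94% of them, and the evening element AAATATCT, a clock motif, in 6.3%, 4.18% and 4.94%. A match is a description of the sequence and not a shown binding site.

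The following stretches of promoter come from the TAIR10.1 genome of RefSeq and are written 5′ to 3′ on the strand of the gene, with W boxes in capitals. The first group shows genes with W boxes among the largest rises, the secreted peptide genes and the genes central to flg22 signalling. In PROPEP3, 4 boxes stand within the printed stretch, and in BAK1 a pair stands side by side.
AT5G44990, chr5:18162918-18163110, plus strand: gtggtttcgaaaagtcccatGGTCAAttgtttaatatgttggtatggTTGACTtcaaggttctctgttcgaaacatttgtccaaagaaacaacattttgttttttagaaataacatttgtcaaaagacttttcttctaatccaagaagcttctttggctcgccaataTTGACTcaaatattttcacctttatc
AT1G26380, chr1:9128573-9128658, minus strand: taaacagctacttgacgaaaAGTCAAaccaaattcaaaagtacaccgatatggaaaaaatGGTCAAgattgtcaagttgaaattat
GSTU12, chr1:26335680-26335861, minus strand: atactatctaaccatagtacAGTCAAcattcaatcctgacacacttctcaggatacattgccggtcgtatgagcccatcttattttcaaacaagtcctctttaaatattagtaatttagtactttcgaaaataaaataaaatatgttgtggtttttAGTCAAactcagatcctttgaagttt
CRK20, chr4:12174619-12174664, plus strand: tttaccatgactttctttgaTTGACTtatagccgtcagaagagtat
PROPEP2, chr5:25934318-25934494, plus strand: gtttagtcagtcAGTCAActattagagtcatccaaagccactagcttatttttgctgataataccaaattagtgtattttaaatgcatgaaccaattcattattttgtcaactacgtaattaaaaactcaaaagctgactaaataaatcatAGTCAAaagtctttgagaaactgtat
PROPEP3, chr5:25939320-25939533, plus strand: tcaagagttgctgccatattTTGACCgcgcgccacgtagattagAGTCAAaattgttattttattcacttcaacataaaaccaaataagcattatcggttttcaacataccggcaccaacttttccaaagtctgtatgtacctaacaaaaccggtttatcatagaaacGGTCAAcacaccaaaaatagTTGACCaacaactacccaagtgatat
AT5G44585, chr5:17984358-17984526, plus strand: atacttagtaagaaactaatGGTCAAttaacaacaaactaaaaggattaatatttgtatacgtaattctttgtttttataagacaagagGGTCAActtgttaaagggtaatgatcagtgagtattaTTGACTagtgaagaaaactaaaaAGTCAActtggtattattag
WRKY33, chr2:16108119-16108228, plus strand: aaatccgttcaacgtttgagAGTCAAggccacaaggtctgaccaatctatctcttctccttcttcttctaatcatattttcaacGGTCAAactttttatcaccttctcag
BAK1, chr4:16090891-16090942, minus strand: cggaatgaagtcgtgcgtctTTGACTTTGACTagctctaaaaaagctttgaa
For contrast, the promoters of both genes with the largest falls hold no W box in the window and are printed whole.
NCED4, chr4:10481369-10481618, plus strand: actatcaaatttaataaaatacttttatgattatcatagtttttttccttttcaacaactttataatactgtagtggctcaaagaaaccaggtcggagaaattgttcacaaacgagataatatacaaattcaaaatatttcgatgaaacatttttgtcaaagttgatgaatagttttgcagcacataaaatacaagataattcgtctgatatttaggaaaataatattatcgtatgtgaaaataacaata
BBX14, chr1:25710990-25711239, minus strand: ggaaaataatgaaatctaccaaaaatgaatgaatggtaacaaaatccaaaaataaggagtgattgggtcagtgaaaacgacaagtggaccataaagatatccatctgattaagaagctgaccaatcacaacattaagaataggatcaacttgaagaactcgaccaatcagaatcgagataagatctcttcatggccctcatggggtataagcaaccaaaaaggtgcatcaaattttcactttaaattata
Of the 10 largest rises 8 had a W box in the window, and of the 10 largest falls 3 had one. PROPEP2, with 2 boxes, is counted there among the rises, and of the other 16 secreted peptide genes 9 had a W box. FLS2, PER4, WRKY18, WRKY40 and AT5G05300 rose without a W box in this window.

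**Figure D3:**
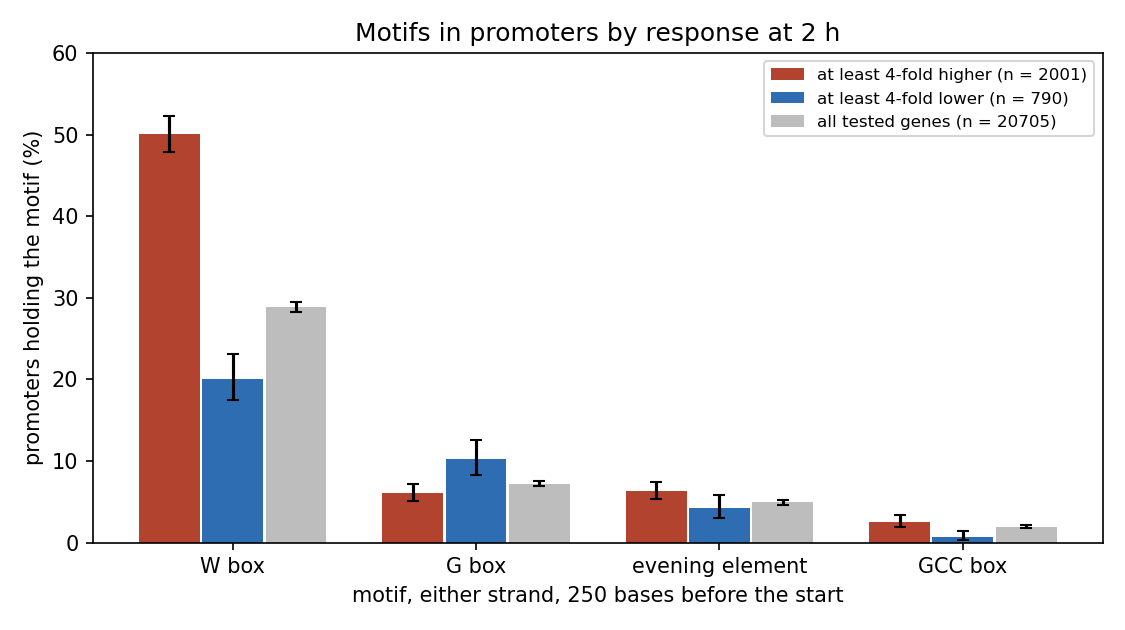
Bars give the percentage of promoters (250 bases before the start, either strand) that hold each of 4 motifs, for genes at least 4-fold higher at 2 h (n = 2001), at least 4-fold lower (n = 790) and all tested genes (n = 20705); error bars are 95% Wilson intervals of counting error. The W box stands in 50.1% of promoters of higher genes, 20.1% of lower genes and 28.9% of all.

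Counted by CPM gained and not by fold, the rise was led by PEN3, the plasma membrane ABC transporter that exports indolic defence compounds. It had 6662, 7053 and 6798 CPM in WT 2 h seedlings, against 407, 374 and 450.5 CPM in WT 0 h seedlings. All WT 2 h libraries were far above all WT 0 h libraries (log2 fold change 4.06 ± 0.12, adjusted p = 1.28e-23). Per kilobase of transcript PEN3 stood at 1387 CPM at 2 h and 83.3 CPM at 0 h. The phi glutathione transferase GSTF6 had 4821, 4131 and 4161 CPM at 2 h, against 123, 116 and 145 CPM at 0 h (log2 fold change 5.09 ± 0.23), and its neighbour in sequence GSTF7, with which it may share reads, had 2848, 2382 and 2499 CPM at 2 h, against 52.3, 41.6 and 61.6 CPM at 0 h. The cytosolic malic enzyme NADP-ME2, a source of NADPH, had 4072, 4058 and 3910 CPM at 2 h, against 130.3, 137 and 158 CPM at 0 h (log2 fold change 4.82 ± 0.09). None of these groups overlapped. The legume lectin family gene AT3G16530 had 2461, 2315 and 2360 CPM at 2 h, against 33.5, 33.8 and 36.1 CPM at 0 h (log2 fold change 6.11 ± 0.14). The Berberine family gene AT4G20830, the extensin EXT4, a structural cell wall protein, and SAG21 completed the 8 largest gains, with log2 fold changes of 5.12, 1.78 and 3.18.

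All 30 members of the receptor complex list were called higher at 2 h, where 36.7% of all genes were, with a median log2 fold change of 3.08 and at least 2-fold in 27. The list holds receptors, coreceptors, their kinases, G proteins and the ligases that remove them. FLS2 (chr5:18791575-18795908, plus strand) had 246, 221 and 230.5 CPM at 2 h, against 30.04, 31.1 and 33.9 CPM at 0 h. BAK1 had 429, 439 and 452 CPM at 2 h, against 56.4, 46.9 and 52.5 CPM at 0 h, and BIK1 had 226, 223 and 228 CPM at 2 h, against 47.1, 43.5 and 51.99 CPM at 0 h. Treated and untreated libraries did not overlap in any of them, and the log2 fold changes were 2.88 ± 0.08, 3.08 ± 0.08 and 2.25 ± 0.09 (adjusted p = 3.69e-24, 2.97e-25 and 4.75e-21). FLS2 shares 172 bp with RWA1 on the other strand. The list's largest rises were in the U-box ubiquitin ligases PUB22, PUB23 and PUB24, which dampen immune responses. PUB22 had 472, 443 and 432 CPM at 2 h, against 7.8, 6.64 and 8.89 CPM at 0 h (log2 fold change 5.85 ± 0.14), PUB23 had 666, 650.2 and 644 CPM at 2 h, against 13.2, 14.1 and 21.7 CPM at 0 h (5.32 ± 0.18) and PUB24 had 105, 108 and 109.7 CPM at 2 h, against 2.85, 2.12 and 2.53 CPM at 0 h (5.43 ± 0.10). With upper quartile scaling 29 of the 30 were called higher and none lower.

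Receptor families outside that list leaned higher than all genes tested, of which 36.7% were higher and 35.1% lower. Of 40 cysteine-rich receptor kinases tested, 31 were called higher and 4 lower (median log2 fold change 3.03). Beside CRK20, CRK31 and CRK39 rose by 7.65 and 7.54 on the log2 scale, while CRK30 had 2.49, 2.58 and 2.25 CPM at 2 h, against 24.4, 26.6 and 25.1 CPM at 0 h (log2 fold change -3.37 ± 0.15). Of 40 lectin receptor kinases, 27 were higher and 5 lower (median 2.74), led by LECRKA4.2, with 106, 97.9 and 102 CPM at 2 h, against 0.381, 0.27 and 0.519 CPM at 0 h (log2 fold change 8.01 ± 0.19). Of 50 receptor-like proteins, which lack a kinase domain, 33 were higher and 10 lower (median 1.6). RLP7 had 42.99, 43.99 and 49.03 CPM at 2 h, against 0.114, 0.101 and 0.195 CPM at 0 h (log2 fold change 8.31 ± 0.18), and its groups were far apart. RLP47 went the other way, with 0.676, 1.26 and 0.543 CPM at 2 h, against 6.7, 5.12 and 4.74 CPM at 0 h (-2.69 ± 0.25). CLV2, a receptor-like protein of the shoot meristem pathway, had 3.21, 4.68 and 3.57 CPM at 2 h, against 8.22, 6.88 and 7.72 CPM at 0 h (-0.98 ± 0.15). Of 22 plant U-box ligases 16 were higher and 4 lower (median 1.2), with PUB25, PUB26 and PUB9 lower (log2 fold changes -1.06, -1.12 and -1.0).

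Of the 32 genes for the oxidative burst, calcium and kinase signalling, 26 were higher (81.2%) and 3 lower (9.38%). Their median log2 fold change was 1.57, and 36.7% of all genes tested were higher and 35.1% lower. RBOHD, the oxidase that makes the apoplastic burst, had 189, 245 and 219.5 CPM at 2 h, against 33.4, 28.8 and 40.4 CPM at 0 h (log2 fold change 2.67 ± 0.13, adjusted p = 1.07e-18). MPK3, a kinase activated within minutes of flg22, had 182, 177 and 167 CPM at 2 h, against 45.4, 46.5 and 57.1 CPM at 0 h (1.82 ± 0.10), and its partner MPK6 had 142, 130.2 and 133 CPM at 2 h, against 56.3, 47.5 and 51.7 CPM at 0 h (1.38 ± 0.07). The groups did not overlap in any of these. The largest rises were in the glutamate receptor-like channels GLR2.9, with 16.9, 23.1 and 20.02 CPM at 2 h, against 0.0381, 0.0337 and 0.0649 CPM at 0 h (log2 fold change 8.62 ± 0.37), and GLR2.8, with 7.95, 9.88 and 8.57 CPM at 2 h, against 0.0761, 0.0674 and 0.0649 CPM at 0 h (6.90 ± 0.40), and in MPK11, with 71.9, 87.6 and 85.4 CPM at 2 h, against 0.723, 0.539 and 0.876 CPM at 0 h (6.83 ± 0.23). GLR2.8 and GLR2.9 are close in sequence and may share reads. The falls were in CNGC2 and CNGC4, which form a calcium channel of this pathway, and in ACA8, a calcium pump. CNGC2 had 28.3, 35.4 and 31.3 CPM at 2 h, against 200.1, 186 and 163 CPM at 0 h (log2 fold change -2.53 ± 0.13) and CNGC4 had 3.97, 3.2 and 3.996 CPM at 2 h, against 29.4, 26.8 and 26.8 CPM at 0 h (-2.90 ± 0.17), with no overlap. ACA8 fell less, with 27.6, 33.6 and 31.9 CPM at 2 h, against 37.9, 37.9 and 40.4 CPM at 0 h (-0.32 ± 0.11, adjusted p = 0.00924), and was not called without WT 2 h replicate 1 (log2 fold change -0.24, adjusted p = 0.0684).

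Among 14 calmodulin-like proteins, which sense calcium, 9 were higher (64.3%) and 2 lower (14.3%, median 0.81), against 36.7% and 35.1% of all genes tested. CML42 had 362, 350.2 and 354 CPM at 2 h, against 5.94, 5.8 and 6.62 CPM at 0 h (log2 fold change 5.86 ± 0.11), and CML41 had 1.18, 1.29 and 1.01 CPM at 2 h, against 9.1, 4.21 and 9.7 CPM at 0 h (-2.71 ± 0.34). TCH3, also named a calmodulin-like gene and known to respond to touch, had 1415, 1602 and 1495 CPM at 2 h, against 128, 119 and 166 CPM at 0 h (log2 fold change 3.45 ± 0.13). Of the 5 touch and cold genes tested of 7 in the list 4 were higher and none lower, and their sums were 1665, 1879 and 1723 CPM at 2 h and 236.5, 199.7 and 299.3 CPM at 0 h. The seedlings at 2 h had also been handled when the medium was replaced, and the part of handling in these values cannot be told apart.

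Secreted immune peptides rose steeply but not as a class. Of 17 genes, 12 were called higher (70.6%), 4 lower (23.5%) and 1 neither (median log2 fold change 3.34), against 36.7% higher and 35.1% lower of all genes. Pep peptides are released from PROPEP precursors and sensed by the receptors PEPR1 and PEPR2. PROPEP3 had 131, 137 and 134 CPM at 2 h, against 0.267, 0.337 and 0.746 CPM at 0 h (log2 fold change 8.17 ± 0.21, or 8.76 without WT 0 h replicate 3), and PROPEP1 had 8.16, 7.59 and 8.15 CPM at 2 h, against 0.914, 0.472 and 0.973 CPM at 0 h (3.34 ± 0.25). The groups did not overlap in either. PROPEP4 had 3.68, 3.04 and 2.83 CPM at 2 h, against 2.132, 2.87 and 3.05 CPM at 0 h and was not called (log2 fold change 0.24 ± 0.27, adjusted p = 0.442), and PROPEP5 had 0.211, 0.291 and 0.698 CPM at 2 h, against 1.33, 1.35 and 1.33 CPM at 0 h (-1.73 ± 0.34, or -2.37 without WT 2 h replicate 3). IDA, a peptide known from the shedding of floral organs, had 8.84, 8.75 and 10.5 CPM at 2 h, against 0, 0.135 and 0.0973 CPM at 0 h (6.78 ± 0.40). Its relative IDL1 stayed under 0.5 CPM in every library (log2 fold change 2.02 ± 0.62, adjusted p = 0.00444).

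AT5G05300 had 8.88, 11.3 and 10.8 CPM at 2 h, against no count in any library at 0 h. With a floor of 3 counts over the group, it was at least 300.7-fold higher. AT2G23270 had 11.5, 8.62 and 9.35 CPM at 2 h, against 0, 0 and 0.0324 CPM at 0 h, a ratio of 841.8 with a 95% counting interval of 150.6 to 33290 from 1 count at 0 h. AT4G37290 had 3.3, 4.17 and 4.42 CPM at 2 h, against 0, 0.0674 and 0.0324 CPM at 0 h, a ratio of 115.5 (39.2 to 562.9) from 3 counts at 0 h. AT4G28460 and AT3G10930, on the same list, rose by 6.91 ± 0.54 and 3.47 ± 0.21 on the log2 scale. RALF23, a peptide that binds the receptor kinase FERONIA and holds back assembly of the FLS2 complex, had 15.6, 16.02 and 17.9 CPM at 2 h, against 68.8, 60.1 and 62.2 CPM at 0 h (log2 fold change -1.95 ± 0.13, adjusted p = 2.29e-14). RALFL34 was lower too (-1.13 ± 0.13), whereas RALFL33 was higher (0.68 ± 0.10). AT5G44580 and AT5G44585, neighbours on chromosome 5, moved in opposite directions. AT5G44585 had 63.5, 52.5 and 53.5 CPM at 2 h, against 8.07, 5.22 and 7.43 CPM at 0 h (3.03 ± 0.20), and AT5G44580 had 74.7, 63.01 and 68.5 CPM at 2 h, against 190.2, 140.5 and 139 CPM at 0 h (-1.19 ± 0.21).

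Of 63 WRKY genes tested of 71, 48 were higher (76.2%) and 6 lower (9.52%) at 2 h, against 36.7% and 35.1% of all genes. Their median log2 fold change was 2.33. WRKY33, a regulator of camalexin synthesis, had 611, 609.9 and 597 CPM at 2 h, against 13.3, 14.7 and 45.4 CPM at 0 h. WRKY40 had 366, 339.5 and 332 CPM at 2 h, against 3.31, 3.2 and 10.3 CPM at 0 h. In both, WT 0 h replicate 3 was about 3-fold above the other untreated libraries and still far below every treated one. Their log2 fold changes were 4.63 ± 0.35 and 5.93 ± 0.27 (adjusted p = 1.92e-13 and 6.25e-19), and 5.43 and 6.73 without that library. WRKY18 rose less, with 47.05, 57.03 and 47.6 CPM at 2 h, against 25.4, 18.8 and 27.99 CPM at 0 h (1.07 ± 0.14, adjusted p = 6.98e-08). WRKY60, the third gene of the WRKY18 and WRKY40 group, had 20.7, 15.3 and 17.6 CPM at 2 h, against 28.2, 23.3 and 15.9 CPM at 0 h and was not called (-0.33 ± 0.23, adjusted p = 0.205), though it was lower under upper quartile scaling (-0.60, adjusted p = 0.0235; the adjusted p ran from 0.0235 to 0.650 over 13 settings). WRKY30 had 167, 204 and 198 CPM at 2 h, against 0.533, 0.674 and 1.23 CPM at 0 h (7.84 ± 0.20). WRKY41 had 10.4, 8.75 and 8.69 CPM at 2 h, against 0, 0.0674 and 0.0324 CPM at 0 h, a ratio of 266.6 (90.9 to 1296) from 3 counts at 0 h, and overlaps 3xHMG-box1 on the opposite strand by 517 bp. The largest falls were in WRKY49 and WRKY70. WRKY70, known for promoting salicylic acid responses, had 0.381, 1.001 and 0.543 CPM at 2 h, against 2.02, 2.76 and 5.38 CPM at 0 h (-2.35 ± 0.47), and its highest untreated value was again in replicate 3. With upper quartile scaling 10 WRKY genes were called lower.

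**Figure D4:**
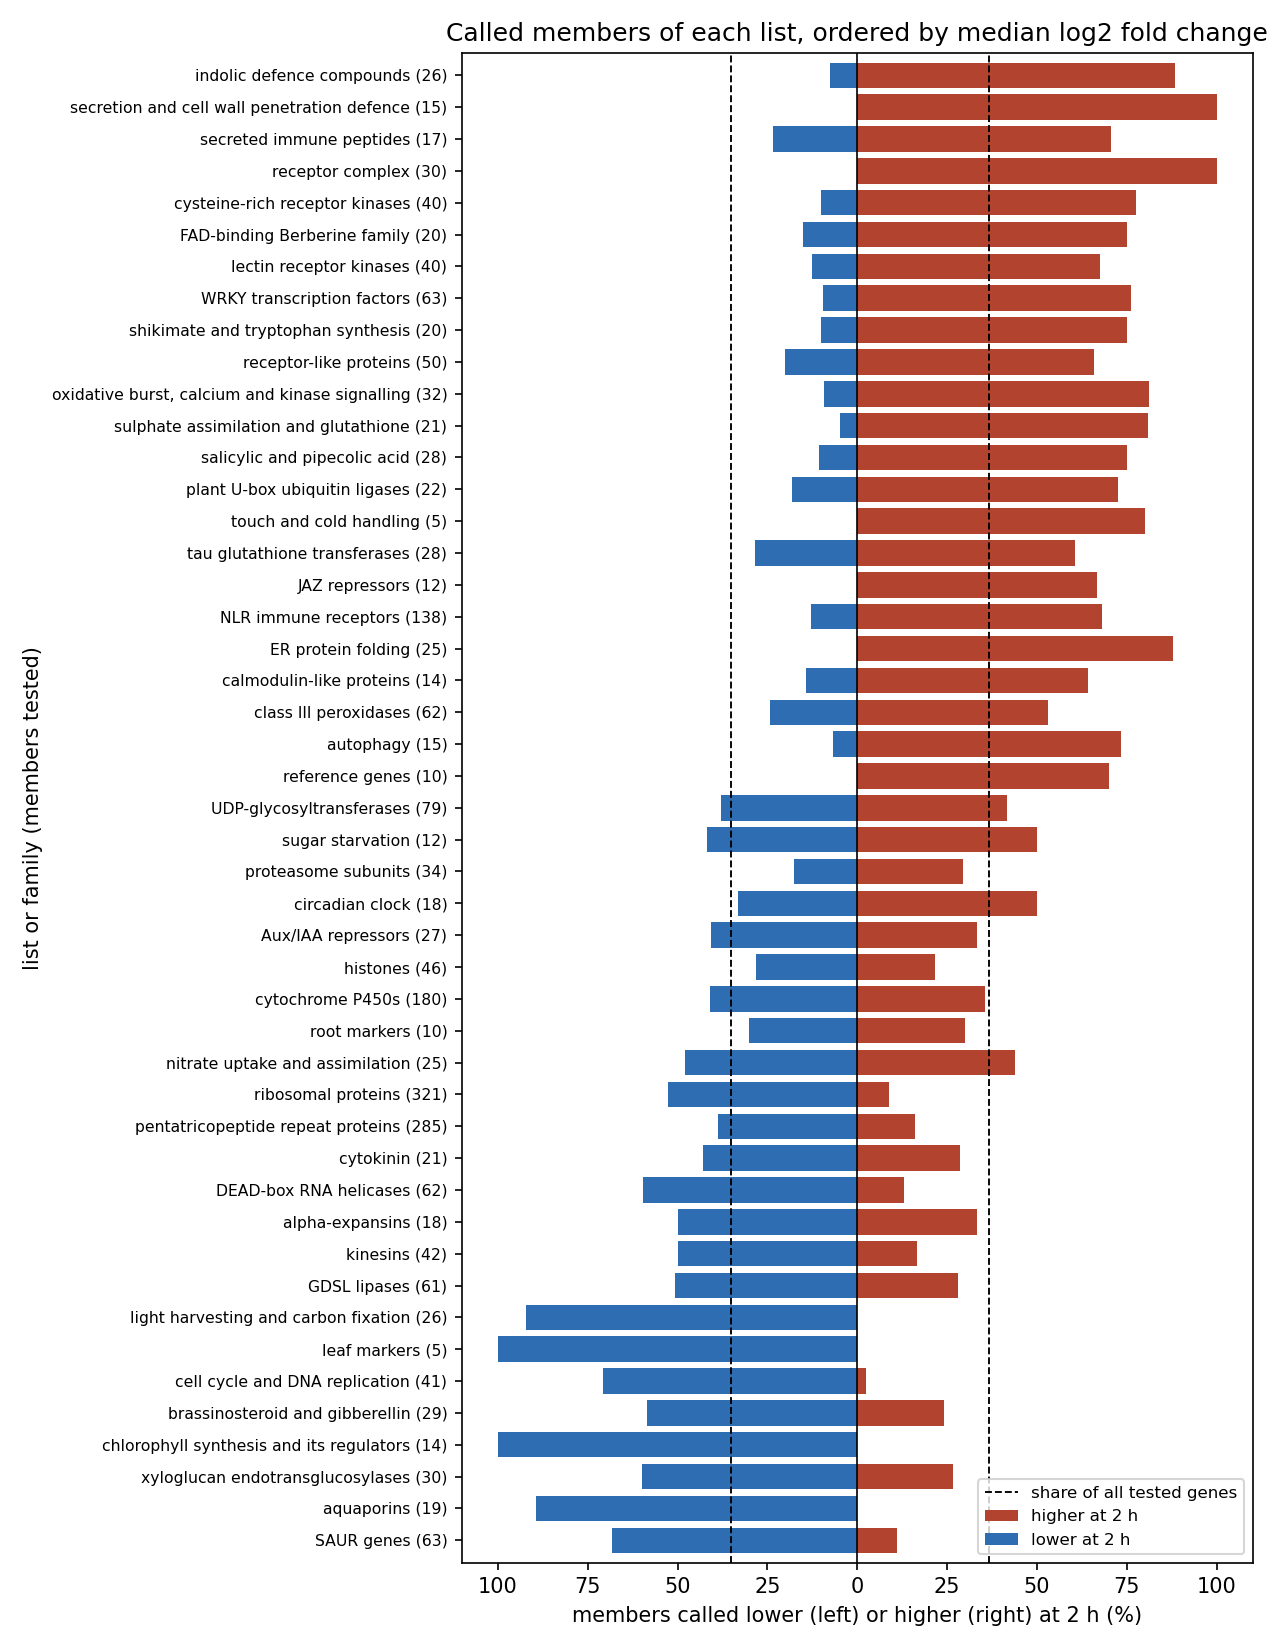
Bars give, for each list or family, the percentage of tested members called higher at 2 h (right) and lower at 2 h (left), ordered by the median log2 fold change, with the number tested in brackets. Dashed lines mark the shares over all tested genes, 36.7% higher and 35.1% lower; all 30 receptor complex genes lie to the right and all 14 chlorophyll genes to the left.

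All 15 genes for secretion and penetration defence were called higher (median log2 fold change 3.37), where 36.7% of all genes were higher and 35.1% lower. The syntaxin SYP121, which carries cargo to sites of attack, had 298, 315 and 276 CPM at 2 h, against 28.1, 26.8 and 30.6 CPM at 0 h (log2 fold change 3.38 ± 0.09, adjusted p = 2.15e-25). The exocyst subunit EXO70H1 had 223, 162 and 181 CPM at 2 h, against 2.67, 2.06 and 2.04 CPM at 0 h (6.39 ± 0.16). MLO6, a relative of the powdery mildew susceptibility gene MLO2, had 271, 319.6 and 311 CPM at 2 h, against 1.29, 1.45 and 2.3 CPM at 0 h (7.47 ± 0.18). Its relative MLO12 had 1505, 1410 and 1421 CPM at 2 h, against 23.7, 23.7 and 28.2 CPM at 0 h (5.84 ± 0.13). Treated and untreated libraries did not overlap in any of these 4. Of 25 genes for protein folding in the endoplasmic reticulum, 22 were higher and none lower, by smaller amounts (median 0.92). The chaperone BIP3, a marker of folding stress, had 25.1, 18.5 and 13.6 CPM at 2 h, against 1.03, 1.38 and 3.31 CPM at 0 h (log2 fold change 3.29 ± 0.40, or 3.97 without WT 0 h replicate 3). CRT3, a calreticulin needed for maturation of the receptor EFR, had 136, 135 and 133 CPM at 2 h, against 25.96, 35.5 and 32.1 CPM at 0 h (2.11 ± 0.08), and BZIP60, the transcription factor of the unfolded protein response, had 263, 251 and 271 CPM at 2 h, against 34.3, 29.97 and 34.6 CPM at 0 h (2.99 ± 0.08). With upper quartile scaling 17 of the folding genes were called higher and 1 lower.

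Of 28 genes for salicylic and pipecolic acid, 21 were higher and 3 lower (median log2 fold change 1.42). CBP60G, a transcription factor that activates salicylic acid synthesis, had 152, 135 and 141 CPM at 2 h, against 2.4, 1.65 and 3.18 CPM at 0 h (log2 fold change 5.88 ± 0.15, adjusted p = 1.54e-25). ICS1, the isochorismate synthase of that route, had 26.8, 22.2 and 22.04 CPM at 2 h, against 8.76, 9.4 and 8.63 CPM at 0 h (1.4 ± 0.20), and EDS5, which exports its product from the chloroplast, had 52.3, 53.4 and 52.8 CPM at 2 h, against 5.63, 5.8 and 6.94 CPM at 0 h (3.11 ± 0.18). None of the 3 overlapped. PR1, the classic late marker of salicylic acid, had 0.55, 0.355 and 0.466 CPM at 2 h, against 0.685, 0.303 and 0.389 CPM at 0 h and was not called (-0.01 ± 0.97, adjusted p = 0.996). DMR6, an enzyme that inactivates salicylic acid, had 5.28, 6.98 and 5.16 CPM at 2 h, against 13.4, 11.4 and 11.4 CPM at 0 h (-1.05 ± 0.17), and EPS1 and NIMIN3 were lower as well (-0.74 and -0.74). Of 12 JAZ repressors of jasmonate signalling, 8 were higher and none lower (median 1.01), and JAZ1 had 500.4, 436 and 467 CPM at 2 h, against 26.3, 29.3 and 36.03 CPM at 0 h (3.94 ± 0.15). With the replicate block, without WT 2 h replicate 1 or without WT 0 h replicate 3, 1 JAZ gene was called lower, and with upper quartile scaling 2 were.

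Tryptophan synthesis and the indolic pathways that draw on it rose together. Of 20 genes of the shikimate and tryptophan routes, 15 were higher and 2 lower (median log2 fold change 1.63). ASA1, the first enzyme committed to tryptophan, had 733, 656 and 702 CPM at 2 h, against 46.3, 47.1 and 53.1 CPM at 0 h (log2 fold change 3.84 ± 0.10, adjusted p = 4.01e-25), its partner subunit ASB1 had 455, 372 and 397 CPM at 2 h, against 23.2, 22.8 and 25.8 CPM at 0 h (4.09 ± 0.12) and tryptophan synthase TSB1 had 1564, 1528 and 1495 CPM at 2 h, against 127, 129 and 139 CPM at 0 h (3.54 ± 0.09). The groups were well apart in all 3. Both called falls were in the isomerases PAI1 and PAI3 (-0.71 and -0.72), near-identical genes of the PAI family that may share reads. Of 26 genes for indolic defence compounds, 23 were higher and 2 lower (median 3.89). CYP71A12, which acts on indole acetaldoxime, had 243, 269 and 268 CPM at 2 h, against 0.343, 0.539 and 0.843 CPM at 0 h (8.78 ± 0.40). CYP82C2 had 10.8, 11.6 and 11.02 CPM at 2 h, against 0, 0 and 0.0324 CPM at 0 h, a ratio of 968.1 (173.3 to 38280) from 1 count at 0 h. The falls were in MYB34, a regulator of indole glucosinolates, and in CYP81F4. MYB34 had 10.6, 7.46 and 9.58 CPM at 2 h, against 20.8, 14.5 and 11.5 CPM at 0 h (-0.76 ± 0.22, adjusted p = 0.00247). CYP81F4 had 19.7, 34.1 and 27.5 CPM at 2 h, against 39.4, 41.9 and 49.4 CPM at 0 h (-0.68 ± 0.27, adjusted p = 0.0253), overlaps AT4G37409 on the opposite strand by 2140 bp, and was not called without WT 2 h replicate 1, WT 2 h replicate 3 or WT 0 h replicate 3 (adjusted p = 0.136, 0.0510 and 0.0862).

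Sulphate assimilation supplies cysteine and glutathione for such compounds. Of its 21 genes, 17 were higher (81.0%) and 1 lower (4.76%, median log2 fold change 1.42), against 36.7% and 35.1% of all genes tested. LSU1, a protein of the low-sulphur response, had 17.5, 18.8 and 23.2 CPM at 2 h, against 1.07, 0.472 and 0.551 CPM at 0 h (log2 fold change 4.85 ± 0.30), the kinase APK2 had 697, 534 and 575 CPM at 2 h, against 54.5, 56.8 and 60.1 CPM at 0 h (3.40 ± 0.13) and the root sulphate transporter SULTR1;2 had 244, 237 and 220 CPM at 2 h, against 20.98, 21.3 and 30.6 CPM at 0 h (3.26 ± 0.14). The cysteine synthase OASB was the 1 called lower (-0.44 ± 0.10). Of 28 tau glutathione transferases tested, 17 were higher and 8 lower (median 1.04). GSTU11 rose by 6.43 ± 0.29 on the log2 scale (7.40 without WT 0 h replicate 3), and GSTU14 had 0.465, 0.42 and 0.504 CPM at 2 h, against 3.73, 3.98 and 3.37 CPM at 0 h (-2.99 ± 0.26).

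Nitrogen genes moved in both directions. Of 25 tested for nitrate and ammonium uptake and assimilation, 11 were higher (44.0%) and 12 lower (48.0%), with a median log2 fold change of -0.16. Over all genes tested 36.7% were higher and 35.1% lower. NRT3.1, the partner protein of the high-affinity nitrate transporters, had 424, 352 and 349 CPM at 2 h, against 35.9, 32.9 and 34.7 CPM at 0 h (log2 fold change 3.44 ± 0.14), and the xylem transporter NPF7.2 had 173, 156 and 183 CPM at 2 h, against 15.1, 18.2 and 21.9 CPM at 0 h (3.21 ± 0.25). The ammonium transporter AMT1;2 had 4.23, 3.42 and 2.33 CPM at 2 h, against 86.4, 54.8 and 64.8 CPM at 0 h (-4.37 ± 0.28), and CLC-A, which loads nitrate into the vacuole, had 40.4, 42.5 and 37.5 CPM at 2 h, against 256, 237 and 253 CPM at 0 h (-2.63 ± 0.07). None of the 4 overlapped. NRT2.1 was low in all libraries, with 2.11, 1.68 and 1.63 CPM at 2 h, against 0.343, 0.573 and 1.04 CPM at 0 h (1.44 ± 0.40, adjusted p = 0.00192). The nitrate reductases differed in direction: NIA2 had 2616, 3107 and 2788 CPM at 2 h, against 1830, 1993 and 2002 CPM at 0 h (0.55 ± 0.08), and NIA1 had 322, 346 and 309 CPM at 2 h, against 415, 510.5 and 539 CPM at 0 h (-0.58 ± 0.10).

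Photosynthesis genes fell without exception among those called. All 14 genes for chlorophyll synthesis and its regulators were lower (median log2 fold change -0.99), where 35.1% of all genes were. GUN4, an activator of magnesium chelatase, had 26.8, 18.9 and 21.6 CPM at 2 h, against 290.1, 278 and 256 CPM at 0 h (log2 fold change -3.61 ± 0.14, adjusted p = 7.04e-21), and it overlaps GCN2 on the opposite strand by 946 bp. CAO, which makes chlorophyll b, had 37.8, 41.8 and 37.5 CPM at 2 h, against 321, 299.9 and 297 CPM at 0 h (-2.97 ± 0.12). The transcription factor GLK2 had 28.4, 24.1 and 23.4 CPM at 2 h, against 148, 139 and 113 CPM at 0 h (-2.40 ± 0.13), with no overlap in any of the 3. Its paralog GLK1 had 69.9, 56.1 and 55.05 CPM at 2 h, against 108, 85.4 and 57.4 CPM at 0 h (-0.47 ± 0.16, adjusted p = 0.009), its groups overlapped, and it was not called without WT 0 h replicate 1 (-0.24, adjusted p = 0.171). Of 26 genes for light harvesting and carbon fixation, 24 were lower and none higher (median -0.56). RBCS1B, a small subunit of Rubisco, had 305, 399 and 296 CPM at 2 h, against 1534, 1767 and 1586 CPM at 0 h (-2.29 ± 0.11), and LHCB2.1, an antenna protein of photosystem II, had 504, 551 and 444 CPM at 2 h, against 2036, 2075 and 1749 CPM at 0 h (-1.97 ± 0.14). RBCS1A, the main small subunit gene, had 11540, 10700 and 10100 CPM at 2 h, against 14660, 16100 and 14350 CPM at 0 h (-0.48 ± 0.11, adjusted p = 3.20e-04), the largest loss in CPM of any called gene. Rubisco activase RCA had 5326, 5255 and 5112 CPM at 2 h, against 7475, 8149 and 7727 CPM at 0 h (-0.57 ± 0.08). RBCS genes, and LHCB1 and LHCB2 genes, are close copies that may share reads. LHCB1.3 had 7360, 6305 and 6126 CPM at 2 h, against 7930, 8110 and 7470 CPM at 0 h and an adjusted p of 0.034, and was not called when WT 2 h replicate 2 or 3, or WT 0 h replicate 1 or 2, was left out (adjusted p = 0.0712 to 0.137). The sums of the 5 leaf markers, of which RBCS1A and LHCB1.3 make up most, were 20030 to 22940 CPM at 2 h and 28390 to 31010 CPM at 0 h.

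Of 19 aquaporins, which are water channels, 17 fell and none rose (median log2 fold change -1.71), where 35.1% of all genes tested were lower and 36.7% higher. PIP2;1, a channel of the plasma membrane, had 127, 145 and 130.3 CPM at 2 h, against 797, 821 and 712 CPM at 0 h (log2 fold change -2.53 ± 0.10, adjusted p = 1.13e-20), and TIP2;3, a channel of the vacuole, had 0.211, 0.743 and 0.31 CPM at 2 h, against 9.18, 8.49 and 6.65 CPM at 0 h (-4.18 ± 0.35, or -4.92 without WT 2 h replicate 2). Of 63 SAUR genes tested, 43 were lower and 7 higher (median -1.83). SAUR genes respond to auxin within minutes and promote elongation. AT4G38840 had 3.04, 2.49 and 2.44 CPM at 2 h, against 40.8, 33.2 and 15.8 CPM at 0 h (-3.50 ± 0.26), whereas AT2G36210 had 17.9, 11.7 and 13.5 CPM at 2 h, against 0.533, 0.944 and 0.454 CPM at 0 h (4.46 ± 0.24). SAUR genes are close copies that may share reads. Of 30 xyloglucan endotransglucosylases 18 were lower and 8 higher (median -1.11). XTH18 had 588, 681 and 598 CPM at 2 h, against 41.7, 46.96 and 46.4 CPM at 0 h (3.79 ± 0.12), while XTH31 had 22.4, 23.5 and 22.4 CPM at 2 h, against 177, 181 and 152 CPM at 0 h (-2.90 ± 0.14) and XTH33 1.44, 0.937 and 1.01 CPM at 2 h, against 10.5, 10.2 and 8.66 CPM at 0 h (-3.13 ± 0.22). Of 18 alpha-expansins, which loosen the wall, 9 were lower and 6 higher (median -0.37). EXPA8 had 1.1, 0.42 and 0.815 CPM at 2 h, against 18.8, 13.7 and 13.5 CPM at 0 h (-4.33 ± 0.30), and EXPA1 had 55.3, 59.7 and 58.03 CPM at 2 h, against 331, 366 and 220.4 CPM at 0 h (-2.41 ± 0.15). EXPA17 and EXPA7 were higher (1.54 and 1.06).

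Of 29 genes for brassinosteroid and gibberellin, hormones of growth, 17 were lower and 7 higher (median log2 fold change -0.72). BES1, a transcription factor of brassinosteroid signalling, had 29.2, 28.5 and 26.1 CPM at 2 h, against 179, 184 and 169 CPM at 0 h (log2 fold change -2.67 ± 0.11), and it overlaps RRA3 on the opposite strand by 818 bp. GA2OX6, which inactivates gibberellin, had 136, 106 and 123 CPM at 2 h, against 2.55, 1.65 and 2.79 CPM at 0 h (5.70 ± 0.14), while GA20OX2, which synthesizes it, had 0.338, 0.355 and 0.116 CPM at 2 h, against 2.25, 1.58 and 1.52 CPM at 0 h (-2.68 ± 0.47). The gibberellin receptor GID1B was higher (2.24 ± 0.13). Of 21 cytokinin genes 9 were lower and 6 higher (median -0.28): the cytokinin oxidase CKX4 had 8.07, 7.17 and 6.56 CPM at 2 h, against 0.723, 1.18 and 1.56 CPM at 0 h (2.63 ± 0.27), and the response regulator ARR9 had 7.23, 8.95 and 9.15 CPM at 2 h, against 28.9, 24.9 and 24.9 CPM at 0 h (-1.63 ± 0.12). Aux/IAA repressors of auxin signalling had 9 higher (33.3%) and 11 lower (40.7%) of 27 (median 0.03). These shares were near the 36.7% higher and 35.1% lower over all genes tested. IAA10 rose by 2.88 ± 0.15 on the log2 scale, and SHY2, which overlaps AT1G04230 on the opposite strand by 640 bp, fell (-2.51 ± 0.22). Of 41 genes for the cell cycle and DNA replication, 29 were lower and 1 higher (median -0.68). MCM7, a subunit of the replicative helicase, had 12.98, 13.3 and 13.6 CPM at 2 h, against 33.9, 35.1 and 32.04 CPM at 0 h (-1.34 ± 0.13), and the G1 cyclin CYCD3;1 had 10.7, 7.65 and 9 CPM at 2 h, against 15.3, 16.9 and 14.98 CPM at 0 h (-0.79 ± 0.11). The largest falls were in KRP1 and SMR1, which inhibit cyclin-dependent kinases. KRP1 had 0.634, 1.07 and 0.621 CPM at 2 h, against 12.3, 11.5 and 10.9 CPM at 0 h (-3.86 ± 0.23), and SMR1 had 4.61, 4.91 and 5.004 CPM at 2 h, against 29.7, 25.5 and 23.1 CPM at 0 h (-2.43 ± 0.16). The called rise was CDKB2;2 (0.43 ± 0.11), which was not called under upper quartile scaling (0.16, adjusted p = 0.199).

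Clock, starvation and recycling genes moved in both directions, as did all genes tested, of which 36.7% were higher and 35.1% lower. Of 18 clock genes 9 were higher and 6 lower (median log2 fold change 0.06). The morning genes CCA1 and LHY were lower, with 37.96, 40.3 and 41.4 CPM at 2 h, against 147, 121 and 121 CPM at 0 h for CCA1 (log2 fold change -1.70 ± 0.11) and 45.7, 45.6 and 47.4 CPM at 2 h, against 209, 168 and 175 CPM at 0 h for LHY (-1.99 ± 0.11). FKF1 and PRR5, which peak later in the day, were higher, with 11.5, 11.9 and 9.7 CPM at 2 h, against 0.647, 1.15 and 0.519 CPM at 0 h for FKF1 (3.83 ± 0.23) and 36.1, 46.9 and 45.5 CPM at 2 h, against 3.35, 4.18 and 4.7 CPM at 0 h for PRR5 (3.39 ± 0.23). The hour of each harvest is not given in the labels, so time of day and treatment cannot be told apart here. Of 15 autophagy genes 11 were higher and 1 lower (median 0.51), led by ATG8H, with 39.5, 44.02 and 42.6 CPM at 2 h, against 13.5, 14.2 and 12.2 CPM at 0 h (1.66 ± 0.12); under upper quartile scaling 8 were higher and 3 lower. Of 12 genes listed under sugar starvation 6 were higher and 5 lower (median 0.11). Without WT 2 h replicate 1 there were 3 lower, and without WT 0 h replicate 3 there were 2. The list was not sorted by whether starvation raises or lowers a member, so these counts give no direction for that response. DIN11 had 264, 258 and 285 CPM at 2 h, against 5.63, 6.2 and 8.66 CPM at 0 h (5.29 ± 0.20), and TPS8 had 55.04, 83.5 and 76.7 CPM at 2 h, against 111, 96.6 and 172 CPM at 0 h (-0.82 ± 0.24) but was not called without WT 0 h replicate 3 (-0.53, adjusted p = 0.0599). Of 10 genes often used as references in plant work 7 were called higher and none lower (median 0.23), although 2 were higher and 3 lower under upper quartile scaling. UBQ10 had 3586, 4071 and 3500 CPM at 2 h, against 1891, 1788 and 1286 CPM at 0 h (1.17 ± 0.12), a rise of about 2-fold.

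WT at 1 h shows which of these levels were still moving. Its 3 libraries held 21634229 to 30679484 counts, and its replicate 3 had a mitochondrial share of 0.134%, unlike replicate 3 of the other times. Set directly against WT 1 h, without the untreated libraries, 11060 genes (51.8%) were called, 5961 (27.9%) higher and 5099 (23.9%) lower at 2 h. Without WT 1 h replicate 3 there were 9984, of which 4924 were higher and 5060 lower. RBOHD had 33.4, 28.8 and 40.4 CPM at 0 h, 558, 555 and 566 CPM at 1 h and 189, 245 and 219.5 CPM at 2 h, and was lower at 2 h than at 1 h (log2 fold change -1.36 ± 0.12). MPK3 had 45.4, 46.5 and 57.1 CPM at 0 h, 596, 606 and 594 CPM at 1 h and 182, 177 and 167 CPM at 2 h, and was lower at 2 h than at 1 h as well (-1.77 ± 0.10). CNGC19, a calcium channel gene, had 0.723, 1.08 and 1.23 CPM at 0 h, 43.01, 42 and 42.7 CPM at 1 h and 1.78, 0.969 and 1.47 CPM at 2 h. It was the second largest fall between 1 h and 2 h by the ranking rule used above (-4.94 ± 0.22), and at 2 h against 0 h it was not called (0.43 ± 0.30, adjusted p = 0.206). The F-box gene AT4G04480, which overlaps PMP22 on the opposite strand by 837 bp, and the genes ZAT7, AT3G12910 and TET9 were the other 4 (-4.96, -4.77, -3.96 and -3.62). ZAT7, a zinc finger gene, had 4.8, 6.81 and 8.79 CPM at 0 h, 28.2, 30.6 and 28.2 CPM at 1 h and 0.761, 1.1 and 1.28 CPM at 2 h, so that it was below the untreated level at 2 h (-2.69 ± 0.26).

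Other genes rose late. LSU1 had 1.07, 0.472 and 0.551 CPM at 0 h, 0.716, 0.374 and 0.677 CPM at 1 h and 17.5, 18.8 and 23.2 CPM at 2 h (2 h over 1 h 5.04 ± 0.32). The nitrate transporter gene NRT2.6 had 2.55, 5.76 and 4.25 CPM at 0 h, 3.76, 3.36 and 3.97 CPM at 1 h and 118, 104 and 109 CPM at 2 h (4.90 ± 0.29). Neither was raised at 1 h, where all 3 libraries lay within or near the untreated range. ASA1 had 46.3, 47.1 and 53.1 CPM at 0 h, 149, 125 and 133 CPM at 1 h and 733, 656 and 702 CPM at 2 h (2.36 ± 0.10), and BIP3 had 1.03, 1.38 and 3.31 CPM at 0 h, 0.966, 0.701 and 0.823 CPM at 1 h and 25.1, 18.5 and 13.6 CPM at 2 h (4.50 ± 0.46). UGT76E12, a glucosyltransferase that overlaps AT3G46658 on the opposite strand by 1904 bp, the bHLH gene AT1G10585 and ELI3-2, an alcohol dehydrogenase, were the other large late rises (2 h over 1 h 5.42, 4.81 and 4.71). Over all genes tested, 27.9% were higher and 23.9% lower at 2 h than at 1 h. By list, 2 h against 1 h gave 9 higher and 12 lower of the 30 receptor complex genes, and 8 higher and 18 lower of the 32 burst, calcium and kinase genes. The shikimate and tryptophan list gave 17 higher and none lower of 20, the sulphate list 15 higher and 2 lower of 21, the folding list 19 higher and 1 lower of 25 and the indolic list 18 higher and 5 lower of 26. The light harvesting list had none higher and 19 lower of 26, and the aquaporins none higher and 17 lower of 19. Both comparisons use the same WT 2 h libraries, so their values are not independent.

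**Figure D5:**
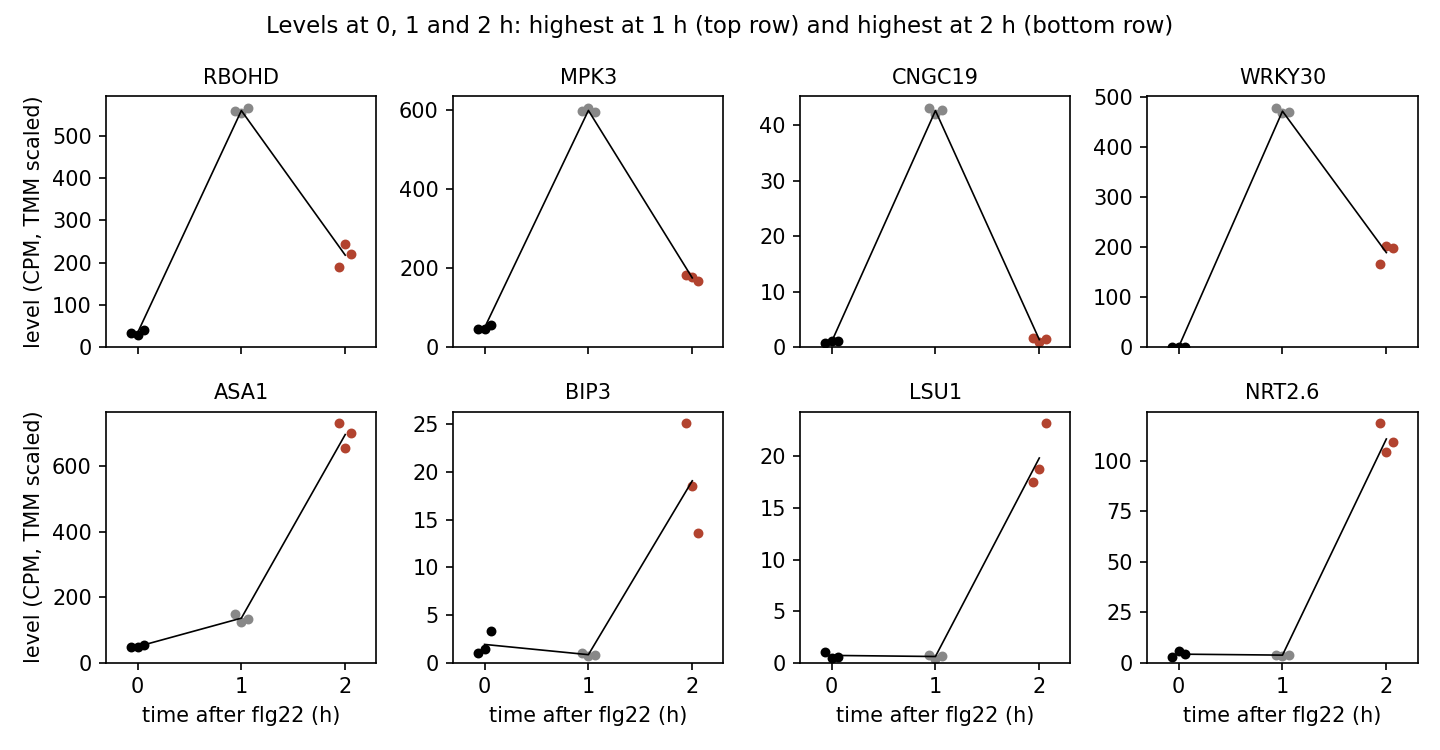
Points give the level (CPM scaled by TMM, each panel with its own axis from 0) in the 3 WT libraries at 0, 1 and 2 h after flg22, and lines join the group means. RBOHD, MPK3, CNGC19 and WRKY30 in the top row are highest at 1 h, and ASA1, BIP3, LSU1 and NRT2.6 in the bottom row at 2 h.

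The series asks what WRKY18 and WRKY40 contribute, and the WT response at 2 h can be set against that of the wrky18 wrky40 double mutant. In the double mutant WRKY40 had 45.8, 37.2 and 36.3 CPM at 2 h and 1.05, 0.637 and 0.467 CPM at 0 h, and WRKY18 had 30.5, 30.2 and 28.3 CPM at 2 h and 18.8, 15.9 and 14.2 CPM at 0 h. WRKY40 was thus lower in the double mutant than in WT at both times, while some WRKY18 counts remained; the labels do not give the kind or the place of the mutations, so these counts say nothing of functional protein. The change from 0 h to 2 h differed between the double mutant and WT in 417 genes (1.95%), 185 with a higher and 232 with a lower value in the double mutant (edgeR's quasi-likelihood test of the interaction). Without WT 0 h replicate 1 it differed in 277 genes, with the replicate as a block in 607 and in DESeq2 in 623. This difference includes the baseline of each genotype. ICS1 had 144, 92.3 and 108 CPM in the double mutant and 26.8, 22.2 and 22.04 CPM in WT at 2 h, and 9.24, 9.58 and 13.6 CPM in the double mutant and 8.76, 9.4 and 8.63 CPM in WT at 0 h. Its response was larger in the double mutant by 2.01 ± 0.27 on the log2 scale (adjusted p = 3.78e-05). CBP60G had 96.7, 81.2 and 87.1 CPM in the double mutant and 152, 135 and 141 CPM in WT at 2 h, and 3.18, 3.79 and 4.08 CPM in the double mutant and 2.4, 1.65 and 3.18 CPM in WT at 0 h. Its response was smaller in the double mutant (-1.30 ± 0.20, adjusted p = 2.26e-04). FLS2 responded less too, with 176, 180 and 184 CPM in the double mutant and 246, 221 and 230.5 CPM in WT at 2 h, and 35.9, 34.3 and 39.8 CPM in the double mutant and 30.04, 31.1 and 33.9 CPM in WT at 0 h (-0.58 ± 0.11, adjusted p = 0.00241). WRKY30 had 314, 322 and 292 CPM in the double mutant and 167, 204 and 198 CPM in WT at 2 h, and 0.938, 1.36 and 2.25 CPM in the double mutant and 0.533, 0.674 and 1.23 CPM in WT at 0 h. Its difference of -0.14 ± 0.28 was not called (adjusted p = 0.906).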

How the data were processed

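Polyadenylated RNA of whole seedlings was sequenced from TruSeq stranded libraries, per the labels' protocols. Per the submitters' processing notes, FastQC 0.11.2, TopHat2 2.0.10, HTSeq and the build TAIR10 were used; the HTSeq version and the strand setting of the counting are not given in the sources used here, so reads of overlapping genes on opposite strands may not be told apart. The deposited table holds raw counts per gene, with no normalization, for 32678 genes, of which 6155 had no count in any library.

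The counts were analysed in edgeR 4.0.16 (R 4.3.3). The filter filterByExpr with the 12 groups kept 21356 genes, libraries were scaled by TMM, and a quasi-likelihood model with 1 mean per group was fitted to all 36 libraries (24 residual degrees of freedom, common biological coefficient of variation 10.71%). P values were adjusted over all genes tested. Each SE was taken as the absolute log2 fold change over the root of F. Levels are CPM scaled by TMM. On simulated data (21052 genes) the model called 48 of 50 genes raised 2-fold and 46 of 50 lowered 2-fold. It called 35 of 50 raised 1.5-fold and 29 of 50 lowered 1.5-fold, with 9 false calls. All simulated libraries shared the same mean levels, apart from the genes changed in WT 2 h. Such data hold no shift of most genes as between WT 2 h and WT 0 h, so they give no error rate for it.

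RefSeq's annotation of TAIR10.1 gave gene names, positions and promoters, and had an entry for 21220 of the genes tested. The 24 lists (467 genes, from general knowledge of plant immunity, metabolism and growth), 12 families by symbol and 12 by annotated product, the named genes and the tests were chosen with earlier results of these data known. Named were the 10 largest rises and falls without overlap of the groups, the 8 largest gains and losses in CPM, up to 3 called rises and falls per list, a set of 22 central genes, the 5 largest changes each way between 1 h and 2 h and every gene of the peptide list. Lists are described by counts and medians, with no set test.

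Per the series' design text, replicate numbers mark 3 sets of 12 samples. Deviations of same-numbered WT 2 h and WT 0 h libraries correlated over genes (r = 0.171, 0.106 and 0.270), so the numbers were taken to pair the samples. A fit with the replicate as a block was therefore run as an alternative. The SEs, p values and calls printed come from the fit without the block, which leaves this pairing out, unless a setting is named. Replicates of 1 group differed by more than sampling noise. Other alternatives were DESeq2 1.42.0, other scalings and filters, only the groups compared, and leaving out each library.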

Additional observations from a re-analysis of the deposited data

Results flagged for a closer look

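Among the named genes, 12 had a change from 0 h to 2 h in the wrky18 wrky40 double mutant that differed from that in WT by the test of the difference itself (edgeR's quasi-likelihood test of the interaction, adjusted over all genes tested). Values are the change in the double mutant minus the change in WT on the log2 scale. BIP3, the folding stress chaperone, had 9.29, 6.46 and 6.18 CPM in the double mutant and 25.1, 18.5 and 13.6 CPM in WT at 2 h, and 2.49, 3.61 and 3.19 CPM in the double mutant and 1.03, 1.38 and 3.31 CPM in WT at 0 h, a difference of -2.07 ± 0.56 (adjusted p = 0.0459). XTR6, a cell wall enzyme, had 174, 199 and 261 CPM in the double mutant and 199, 295 and 209.8 CPM in WT at 2 h, and 40.5, 47.5 and 53.2 CPM in the double mutant and 18.01, 18.2 and 26.7 CPM in WT at 0 h (-1.31 ± 0.29). The expansin EXPA1 had 71.3, 67.9 and 72.7 CPM in the double mutant and 55.3, 59.7 and 58.03 CPM in WT at 2 h, and 194, 164 and 169.8 CPM in the double mutant and 331, 366 and 220.4 CPM in WT at 0 h (1.09 ± 0.20); the smaller fall in the double mutant started from a lower level. RLP47 had 2.6, 1.68 and 2.79 CPM in the double mutant and 0.676, 1.26 and 0.543 CPM in WT at 2 h, and 5.34, 4.7 and 5.23 CPM in the double mutant and 6.7, 5.12 and 4.74 CPM in WT at 0 h (1.59 ± 0.34). MPK3 had 145, 162 and 163 CPM in the double mutant and 182, 177 and 167 CPM in WT at 2 h, and 63.1, 74.7 and 69.1 CPM in the double mutant and 45.4, 46.5 and 57.1 CPM in WT at 0 h (-0.64 ± 0.14). The others were CBP60G (-1.30), FLS2 (-0.58), LECRKA4.3 (-0.89), CRK42 (-0.92), XTH18 (-0.60), ATG7 (0.50) and ICS1 (2.01).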

How the results depend on the processing

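Leaving out 1 library at a time gave 14614 to 14778 called genes for WT 2 h against WT 0 h (7524 to 7604 higher, 7062 to 7216 lower) and 9887 to 10302 for WT 2 h against WT 1 h. The difference in response between wrky18 wrky40 and WT gave 277 to 488 genes (121 to 189 higher, 156 to 299 lower), with both low values, 277 in all and 121 higher, without WT 0 h replicate 1. DESeq2 called 623 genes in that difference (323 higher, 300 lower), against 417 in edgeR (185 higher, 232 lower). With the replicate block 15715 genes were called for WT 2 h against WT 0 h (8023 higher, 7692 lower), 15325 of them among the 15333 called without it and in the same direction. The block gave 11664 for WT 2 h against WT 1 h, and moved no comparison count by over 1.5 times. For the difference in response between wrky18 wrky40 and WT it gave 607 genes (270 higher, 337 lower), against 417 without it. The mitochondrial share of WT 1 h replicate 3 (0.134%) was unlike that of the other replicate 3 libraries, so its place in the block is uncertain. Letting the promoter window run to 50 bases after the start moved the W box shares to 55.9% of genes at least 4-fold higher and 33.3% of all, and the shares of all genes to 8.64% for the G box, 5.88% for the evening element and 2.59% for the GCC box. Of values for named genes under the alternatives, 3000 kept their direction and side of the threshold, 13 lost the call and 1 gained it. Upper quartile scaling moved ribosomal proteins to 17 higher and 274 lower. The cause was not tested. Genes with few counts at 0 h limit fold precision, p values rest on 3 seedling samples per group, and 815 tested genes overlap another by at least 500 bp on the opposite strand.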

Other observations

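Large families defined by their annotated product moved unevenly at 2 h. Of 138 genes for nucleotide-binding leucine-rich repeat proteins tested, the intracellular immune receptors, 94 were higher and 18 lower (median log2 fold change 0.93), and set against WT 1 h 23 were higher and 72 lower. Of 20 Berberine family genes, 15 were higher and 3 lower (median 2.81), and against WT 1 h 16 were higher and 2 lower. Against WT 1 h, 27.9% of all genes tested were higher and 23.9% lower. Of 62 peroxidases, 33 were higher and 15 lower (median 0.60). Cytochromes P450 and UDP-glycosyltransferases were nearer the shares over all genes tested, 36.7% higher and 35.1% lower. Of 180 P450 genes 64 were higher (35.6%) and 74 lower (41.1%, median -0.06). Of 79 glycosyltransferases 33 were higher (41.8%) and 30 lower (38.0%, median 0.14).

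Of 321 ribosomal protein genes, 28 were higher and 169 lower (median -0.21). Of 62 DEAD-box helicase genes 8 were higher and 37 lower (median -0.35), and of 285 pentatricopeptide repeat genes, which act on RNA in organelles, 46 were higher and 111 lower (median -0.27). Of 61 GDSL lipases, 17 were higher and 31 lower (median -0.44), and of 42 kinesins 7 were higher and 21 lower (median -0.42), or 3 higher and 32 lower under upper quartile scaling. Of 46 histone genes 10 were higher and 13 lower (median 0.01), and of 34 proteasome genes 10 were higher and 6 lower (median 0.06), with 3 lower without WT 2 h replicate 1, WT 2 h replicate 3 or WT 0 h replicate 3; under upper quartile scaling these became 4 higher and 25 lower, and 1 higher and 19 lower. Among all genes tested, 36.7% were higher and 35.1% lower.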
